A study of Mus musculus with 12 samples.

Results

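The 9 genes described here encode surface ligands, a receptor and an enzyme with which a cell that meets T cells starts, supports or stops their response: Cd274, Pdcd1lg2, Cd40, Cd80, Cd86, Icosl, Cd276, Lgals9 and Ido1. They were chosen by name, as the rows of the count table whose Ensembl identifier maps to these symbols, and all 9 were found among 55822 identifiers. RNA sequencing of smooth muscle cells cultured from the mouse aorta, the muscular layer of the vessel, gave 12 libraries, 4 in each of 3 groups. In 7 of the 9 there were enough reads for a test. Pdcd1lg2 and Cd86 were too low to judge in every group.

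The first group, called IFNγ/LPS CM, received conditioned medium of bone marrow-derived macrophages that had been primed with 20 ng/mL interferon gamma overnight, stimulated with 100 ng/mL lipopolysaccharide for 4 hours and washed. The second group, naive CM, received medium of macrophages without that stimulation, and the third was kept in regular growth medium. Both conditioned media were collected over 24 hours in 0.3% serum with 10 ng/mL M-CSF, a macrophage growth factor, and were given for 24 hours to muscle cells that had been starved for 48 hours in 0.3% serum. For the regular medium group neither the composition of the medium nor starvation nor hours in it are described. Conditioning by macrophages, serum, M-CSF, starvation and time therefore cannot be told apart in comparisons with this group. Libraries are numbered as biological replicates with no word on animals or cultures, so p-values measure only the spread between these libraries, and some of that spread may be technical. The columns of the table are named M0 and M1 for the conditioned media. They were read as naive and IFNγ/LPS, the usual names of these macrophage states, and all directions below rest on that reading.

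T cells need a signal through their antigen receptor and a second one from surface ligands of the B7 family. CD80 and CD86 deliver it through CD28 and, bound by CTLA-4, withhold it, while ICOSL acts through ICOS. PD-L1 (Cd274) and PD-L2 (Pdcd1lg2) bind PD-1 and inhibit the T cell, CD40 receives help from T cells through CD40L, galectin-9 (Lgals9) binds TIM-3, and IDO1 degrades tryptophan that T cells need.

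Across these genes the response to the stimulated medium was uneven. Of the 7 tested, 6 were higher and 1, Cd276, was lower in IFNγ/LPS CM than in naive CM at an edgeR adjusted p under 0.05, the threshold used for a call. The background is high, since 71.9% of all 16140 genes tested passed, 36.1% higher and 35.8% lower. These shares are also the background for the counts of each list of related genes below. The median log2 fold change of the 7 was 3.96, against 0.00 over all genes tested. Among the 7, Cd40 had enough reads for a test only through IFNγ/LPS CM, so its higher call followed in part from how it entered. With library totals in place of TMM (a scaling by the mean log ratio between libraries after genes with extreme ratios or extreme abundance are trimmed) the median of all genes was -0.38 and the calls were 3279 higher and 9371 lower, where TMM gave 5830 and 5781, and the 7 members kept their direction and call. In naive CM against regular medium 3 of the 7 passed, all higher, where 34.7% of all genes passed and 18.3% were higher, with a median of 0.22 for the 7 and -0.02 for all genes. In IFNγ/LPS CM against regular medium 7 passed, where 71.8% of all genes passed, and 6 of these were higher, where 35.4% of all genes were. The comparisons share their groups and are not independent of each other.

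**Figure D1:**
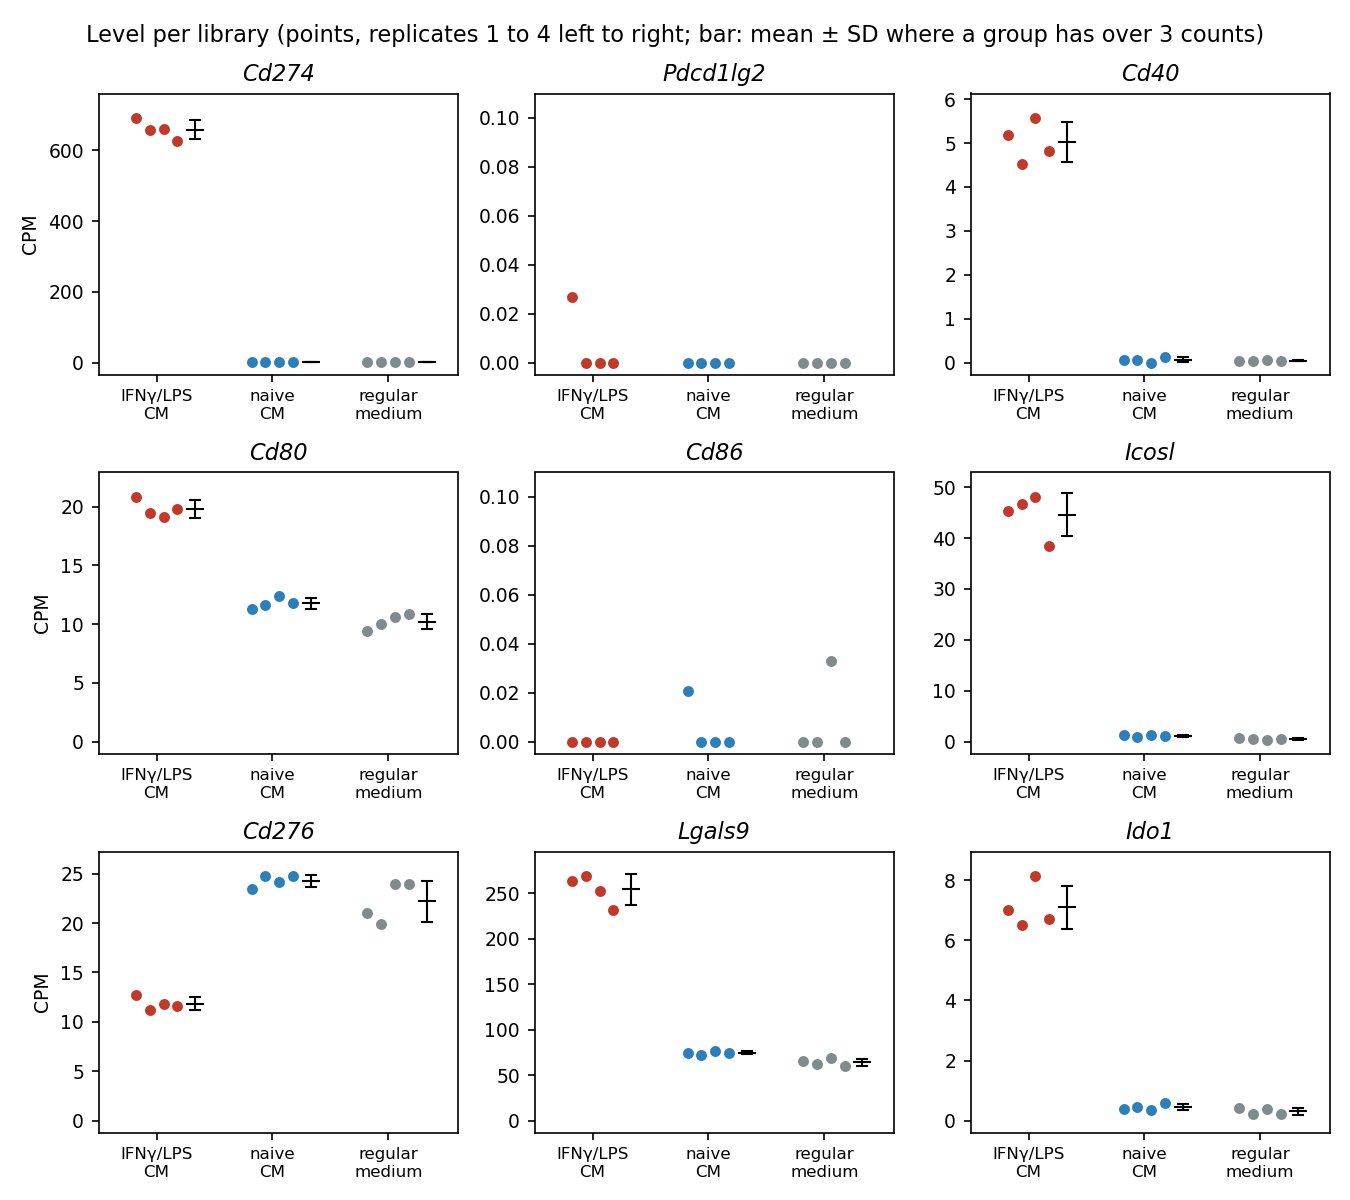
Level of each gene in each library, in CPM on a linear axis whose range differs by panel. Points are libraries, with the mean ± SD (n = 4) beside groups of over 3 counts. In 6 panels the IFNγ/LPS CM libraries lie above all others and for Cd276 below all others, and Pdcd1lg2 and Cd86 have at most 1 count in a group.

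Depth was 28097496 to 61493375 estimated counts per library. The smooth muscle label was checked on 10 markers, whose summed level was 231 to 251 CPM in IFNγ/LPS CM, 704 to 797 in naive CM and 1106 to 1227 in regular medium (CPM, counts per 1000000 of the scaled total). Between the conditioned media 7 of the 10 were lower in IFNγ/LPS CM, 1 was higher and 2 did not pass. The contractile markers Myh11 and Cnn1 were below 1 CPM on average in every group, and the 5 fibroblast markers summed to 4515 to 4894 CPM, 1577 to 1743 and 1565 to 1844 in the same order of groups, nearly all of it from Dcn. The fibroblast markers were split, with 2 higher in IFNγ/LPS CM than in naive CM, Dcn among them, 2 lower and 1 not past the test. Among 15 macrophage markers Fcgr1 and C1qa had no count in any library, and Ptprc, the common leukocyte antigen, had 1 count in IFNγ/LPS CM, 3 in naive CM and 3 in regular medium. The macrophage markers summed to 58.6 to 69.7 CPM with IFNγ/LPS CM, 33.1 to 36.5 with naive CM and 33.4 to 35.2 with regular medium. Of the 15, 10 were not tested. Of the 5 tested, 4 were higher in IFNγ/LPS CM than in naive CM (Csf1r, Cd68, Cd14 and Lyz2) and Mertk was lower. Csf1r had 656 counts in IFNγ/LPS CM and 44 in naive CM, and Lyz2 had 67 and 18. The higher calls of Csf1r and Lyz2 followed in part from how they entered the test. Of 8 dendritic cell markers, 7 had at most 3 counts in each group, and the summed level of 6.16 to 7.02, 14.9 to 15.8 and 16.7 to 17.7 CPM was that of Zbtb46. The 6 endothelial markers summed to 2.21 to 2.91, 0.525 to 0.938 and 0.664 to 1.09 CPM, and 4 of them were not tested. Of the 2 tested, Tek was higher in IFNγ/LPS CM than in naive CM (means 2.19 and 0.148 CPM) and Pecam1 lower (means 0.155 and 0.435 CPM). Each had few counts in its lower group, 28 for Tek in naive CM and 22 for Pecam1 in IFNγ/LPS CM. The part of these marker differences in the levels given below was not tested, and in bulk RNA fewer cells of a type and less RNA per cell cannot be told apart.

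PD-L1 had the largest rise of the set. Cd274 (ENSMUSG00000016496; chr19:29367455-29388095 on the plus strand, GRCm38) stood at 691, 656, 661 and 625 CPM in IFNγ/LPS CM, at 1.48, 1.49, 1.83 and 1.02 CPM in naive CM and at 1.75, 1.22, 1.32 and 1.43 CPM in regular medium. All 4 libraries of IFNγ/LPS CM were high and the other 8 lay together near 1.5 CPM or below 2. The means were 658 ± 27.2 CPM in IFNγ/LPS CM and 1.45 ± 0.333 CPM in naive CM (SD, n = 4 each), a 467-fold difference (log2 fold change 8.87, SE 0.105, edgeR adjusted p = 1.84e-19). Naive CM and regular medium, at 1.43 ± 0.230 CPM, overlapped and gave a log2 fold change of -0.03 (SE 0.151, edgeR adjusted p = 0.910), whose sign changed when single libraries were left out. By log2 fold change Cd274 ranked 108 of 16140 genes between the conditioned media. By level per length it ranked 269 of 15686 genes in IFNγ/LPS CM, in the top 1.71%, while its rank was 12492 with naive CM and 12506 with regular medium. An unnamed antisense gene shares 511 exonic bases with it and had 3, 3 and 1 counts in the groups.

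PD-L2, the second ligand of PD-1, had almost no reads beside this. Pdcd1lg2 (ENSMUSG00000016498) begins 22.8 kb downstream of the end of Cd274, at chr19:29410919-29471161 on the same strand. It had 1 count in IFNγ/LPS CM, 0 in naive CM and 0 in regular medium. A count of 3 over a group, the limit used here for a gene at 0, corresponds to 0.0212, 0.0150 and 0.0147 CPM, and intervals and limits cover counting error only.

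The starts of these neighbouring genes are shown because their RNA differed so much. The 6 members with a promoter window in RefSeq (GRCm38.p6) were searched on both strands over the 250 bases before the start for the interferon element core (GAAA, any 2 bases and GAAA), found in 2.98% of 32851 windows, for the STAT element TTCNNNGAA, found in 7.02%, and for a loose κB motif (GGG, any 5 bases and CC), found in 45.8%. Cd40, Cd86 and Ido1 have no window. Capitals mark a match that lies wholly in the stretch shown. Stretches run 5′ to 3′ on the gene's strand. They leave out bases annotated as untranslated region, but not other annotated parts of genes. Cd274 spans chr19:29367309-29367437 on the plus strand and Pdcd1lg2 chr19:29410669-29410918 on the plus strand. The Cd274 stretch overlaps the annotated span of the neighbouring gene Plgrkt on the minus strand, which reaches base 29367390.
Cd274: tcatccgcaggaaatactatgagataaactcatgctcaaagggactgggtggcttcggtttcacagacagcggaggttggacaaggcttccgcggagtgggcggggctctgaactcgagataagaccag
Pdcd1lg2: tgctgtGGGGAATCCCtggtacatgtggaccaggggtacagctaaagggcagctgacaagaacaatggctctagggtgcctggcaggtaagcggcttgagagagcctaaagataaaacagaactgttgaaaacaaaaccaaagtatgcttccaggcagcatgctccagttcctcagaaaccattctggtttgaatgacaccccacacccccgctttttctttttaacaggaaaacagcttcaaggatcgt
None of the 3 motifs matched in the Cd274 window. The Pdcd1lg2 window held the loose κB motif at 1 site, read on both strands. A match is a description of letters, not of binding, and no match says only that these letters are not in the window.

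Around the pair, 6 of 7 listed neighbours were matched by symbol and tested, and the symbol Kiaa2026 matched no row. Of these 6, 3 were higher in IFNγ/LPS CM than in naive CM, 1 was lower and 2 stayed short of the threshold. The median of their log2 fold changes was 0.44 (all genes 0.00). Among all genes 36.1% were higher and 35.8% lower. Jak2, the kinase of the interferon gamma receptor, stood at 506 ± 9.59 CPM with IFNγ/LPS CM and 47.7 ± 1.15 CPM with naive CM (10.6-fold). Rcl1, needed for ribosomal RNA processing, reached 19.8 ± 1.69 against 7.98 ± 0.575 CPM (2.48-fold). Plgrkt, a plasminogen receptor that starts 65 bases away on the other strand, had 42.7 ± 1.07 against 25.0 ± 1.59 CPM. Ermp1, an endoplasmic reticulum protease, was at 63.6 ± 2.38 against 149 ± 9.67 CPM (2.35-fold lower). The count of lower genes was 2 without IFNγ/LPS CM replicate 1 or naive CM replicate 4, with the replicate block and with only the 2 groups compared, and 3 with library totals.

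**Figure D2:**
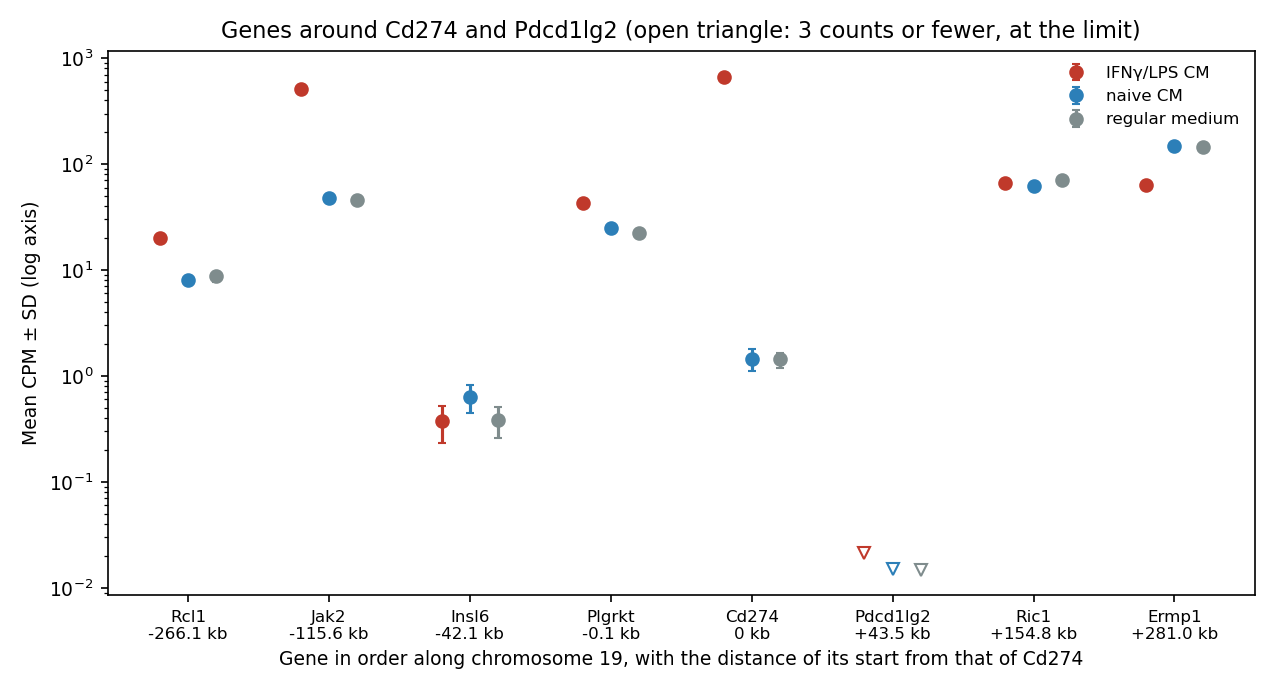
Mean CPM ± SD (n = 4, log axis) of the genes around Cd274 and Pdcd1lg2, in their order on chromosome 19, with the distance of each start from that of Cd274. Jak2 and Cd274 stand at 506 and 658 CPM in IFNγ/LPS CM, while the open triangles of Pdcd1lg2 mark the limit of 3 counts.

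Genes that carry or inhibit the interferon gamma signal were also higher in IFNγ/LPS CM, and their part in the level of Cd274 was not tested. All 12 of the list were tested and higher in IFNγ/LPS CM than in naive CM, with a median log2 fold change of 2.32 (all genes 0.00), while with library totals 11 were higher and 1 was lower. Irf1, a transcription factor induced by interferon gamma, stood at 1580.5 ± 59.5 CPM with IFNγ/LPS CM and 39.1 ± 1.01 CPM with naive CM (40.5-fold). Socs1, which inhibits the receptor's kinases, had 90.7 ± 3.32 against 0.593 ± 0.0356 CPM (151-fold). In naive CM against regular medium 5 of the 12 were higher, 1 was lower and 6 did not pass (median 0.06).

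Genes for proteins that keep or degrade PD-L1 went both ways. Of 6 tested, 2 were higher, 1 was lower and 3 stayed short of the threshold (median log2 fold change -0.06, all genes 0.00), and with library totals 4 were lower. Among all genes 36.1% were higher and 35.8% lower. Cmtm6, which protects PD-L1 from lysosomal breakdown, stood at 120 ± 5.73 CPM with IFNγ/LPS CM and 56.8 ± 3.77 CPM with naive CM (2.12-fold). Spop, an adaptor of a ubiquitin ligase, had 118 ± 8.36 against 78.9 ± 3.34 CPM (1.49-fold), and Cop1, a ubiquitin ligase, had 133 ± 2.85 against 202 ± 5.52 CPM (1.52-fold lower).

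Of the ligands for CD28, only Cd80 had reads to judge. Cd80 (ENSMUSG00000075122; chr16:38455561-38496335, plus strand) stood at 20.8, 19.4, 19.2 and 19.8 CPM in IFNγ/LPS CM, at 11.2, 11.7, 12.4 and 11.8 CPM in naive CM and at 9.38, 10.0, 10.6 and 10.8 CPM in regular medium. The 3 groups did not overlap, but those of naive CM and regular medium lay close. The difference between the conditioned media was 1.68-fold (19.8 ± 0.734 against 11.8 ± 0.456 CPM), with a log2 fold change of 0.75 (SE 0.064) and an edgeR adjusted p of 2.72e-09. It was 1.15-fold between naive CM and regular medium (11.8 ± 0.456 against 10.2 ± 0.663 CPM), with a log2 fold change of 0.20 (SE 0.065) and an edgeR adjusted p of 0.0193. This smaller call was lost without naive CM replicate 3 (edgeR adjusted p = 0.0569) and without regular medium replicate 1 (edgeR adjusted p = 0.0671). Cd86 (ENSMUSG00000022901; chr16:36603869-36666081, minus strand), the other CD28 ligand and a gene of macrophages and dendritic cells, had 0 counts in IFNγ/LPS CM, 1 in naive CM and 1 in regular medium.

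The ICOS ligand rose in IFNγ/LPS CM and had a step in naive CM as well. Icosl (ENSMUSG00000000732; chr10:78069302-78083913, plus strand) stood at 45.4, 46.7, 48.1 and 38.4 CPM in IFNγ/LPS CM, at 1.27, 0.987, 1.32 and 1.02 CPM in naive CM and at 0.601, 0.487, 0.362 and 0.537 CPM in regular medium. No library of a group overlapped another group, and IFNγ/LPS CM replicate 4 was the lowest of its group. IFNγ/LPS CM was 39.6-fold above naive CM (44.6 ± 4.30 against 1.15 ± 0.169 CPM), with a log2 fold change of 5.31 (SE 0.110) and an edgeR adjusted p of 5.73e-19. Naive CM was 2.19-fold above regular medium (1.15 ± 0.169 against 0.497 ± 0.101 CPM), with a log2 fold change of 1.13 (SE 0.157) and an edgeR adjusted p of 1.52e-05. Within a library Icosl had 2.26 ± 0.254 counts per count of Cd80 in IFNγ/LPS CM. Cd80 had 10.4 ± 1.51 counts per count of Icosl in naive CM and 21.4 ± 5.75 in regular medium, so the order of these counts, which are not per length, turned round.

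B7-H3 was the member that fell. Cd276 (ENSMUSG00000035914; chr9:58524298-58555437, minus strand), a B7 relative whose receptor is debated, stood at 12.7, 11.2, 11.8 and 11.6 CPM in IFNγ/LPS CM. It had 23.4, 24.7, 24.2 and 24.8 CPM in naive CM and 21.02, 19.9, 24.0 and 23.9 CPM in regular medium. Every library of IFNγ/LPS CM was below every other library, while naive CM and regular medium overlapped. Between the conditioned media it was 2.05-fold lower (11.8 ± 0.639 against 24.3 ± 0.623 CPM), with a log2 fold change of -1.04 (SE 0.068) and an edgeR adjusted p of 5.27e-11. Between naive CM and regular medium, at 22.2 ± 2.06 CPM, the log2 fold change of 0.13 (SE 0.065) did not pass (edgeR adjusted p = 0.126), except without regular medium replicate 4 (edgeR adjusted p = 0.0495). An overlapping unnamed gene shares 416 exonic bases with it and had 11, 15 and 13 counts.

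Among other relatives of the B7 family 8 of 9 listed genes were in the table and 4 were tested, of which 2 were higher and 2 lower in IFNγ/LPS CM than in naive CM (median log2 fold change -0.60, all genes 0.00). With only genes of 1 CPM in at least 4 libraries tested, 1 was higher. Vtcn1 (B7-H4), an inhibitory B7 ligand, fell to 0.254 ± 0.0577 CPM with IFNγ/LPS CM, against 14.8 ± 0.687 CPM with naive CM. With 36 against 2970 counts the ratio was 58.4-fold lower (exact 95% interval 42.1 to 83.6). Ildr2 had 66.3 ± 1.20 against 269 ± 3.91 CPM (4.05-fold lower). Btn2a2, a butyrophilin, had 75 counts against 12, a ratio of 8.82 (4.77 to 17.8), and only IFNγ/LPS CM had enough reads for a test. Vsir (VISTA), which is outside the rule for named genes and was chosen after its values were seen, had 1.89 ± 0.209 against 1.06 ± 0.0930 CPM.

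CD40 appeared almost only in IFNγ/LPS CM. Cd40 (ENSMUSG00000017652; chr2:165055627-165072948, plus strand) stood at 5.19, 4.51, 5.57 and 4.81 CPM in IFNγ/LPS CM, at 0.0624, 0.0647, 0 and 0.136 CPM in naive CM and at 0.0343, 0.0295, 0.0659 and 0.0413 CPM in regular medium. The 8 libraries outside IFNγ/LPS CM rest on 15 and 8 counts per group, and 1 of them had none. Only IFNγ/LPS CM had enough reads for Cd40 to be tested. The ratio of counts between the conditioned media was 67.1 (exact 95% interval 40.4 to 121; log2 fold change 6.03, edgeR adjusted p = 2.78e-13). Between naive CM and regular medium it was 1.92 (0.764 to 5.23; edgeR adjusted p = 0.236), a difference not detectable at this depth.

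Genes of the proteins that act below CD40, which other receptors of the tumour necrosis factor family also use, were higher as well. Of 12 listed, 11 were tested and all 11 were higher in IFNγ/LPS CM than in naive CM, with a median log2 fold change of 1.49 (all genes 0.00), and 10 with library totals. Traf1, an adaptor, stood at 10.1 ± 1.01 CPM with IFNγ/LPS CM and 0.668 ± 0.0387 CPM with naive CM (15.04-fold). Birc3, a ubiquitin ligase bound to it, had 109 ± 6.21 against 12.1 ± 0.863 CPM (9.04-fold), and Tnfaip3, which ends NF-κB signalling, had 396 ± 5.73 against 54.3 ± 6.78 CPM (7.27-fold). Cd40lg, the ligand carried by T cells, had no count in any library. In naive CM against regular medium 3 of the 11 were higher, 2 lower and 6 did not pass (median 0.07).

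Galectin-9 was the most abundant member outside IFNγ/LPS CM. Lgals9 (ENSMUSG00000001123; chr11:78962974-78984946, minus strand) stood at 264, 269, 253 and 231 CPM in IFNγ/LPS CM, at 74.8, 72.5, 76.4 and 74.7 CPM in naive CM and at 65.5, 61.7, 69.1 and 59.9 CPM in regular medium. The groups did not overlap. Between the conditioned media the difference was 3.41-fold (254 ± 16.8 against 74.6 ± 1.63 CPM), with a log2 fold change of 1.77 (SE 0.051) and an edgeR adjusted p of 1.31e-16. Between naive CM and regular medium it was 1.17-fold (74.6 ± 1.63 against 64.1 ± 4.09 CPM), with a log2 fold change of 0.22 (SE 0.051) and an edgeR adjusted p of 0.00232. Havcr2, which encodes the galectin-9 receptor TIM-3, had 477 counts in IFNγ/LPS CM, 86 in naive CM and 76 in regular medium.

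The Lgals9 promoter was the only one of the 6 searched with a match to the interferon element core, and it is shown with that of Icosl, which rose more and held only the loose κB motif. The stretches are chr11:78984947-78985174 on the minus strand for Lgals9 and chr10:78069118-78069301 on the plus strand for Icosl. Capitals mark GGGAACACCC (κB) and TTTCTTTTTC (the interferon core read on the other strand) in Lgals9 and GGAGCTCCCC (κB, other strand) in Icosl.
Lgals9: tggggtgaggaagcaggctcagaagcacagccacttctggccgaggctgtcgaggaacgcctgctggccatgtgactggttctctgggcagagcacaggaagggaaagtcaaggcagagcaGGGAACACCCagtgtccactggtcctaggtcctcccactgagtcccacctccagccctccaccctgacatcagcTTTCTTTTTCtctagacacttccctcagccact
Icosl: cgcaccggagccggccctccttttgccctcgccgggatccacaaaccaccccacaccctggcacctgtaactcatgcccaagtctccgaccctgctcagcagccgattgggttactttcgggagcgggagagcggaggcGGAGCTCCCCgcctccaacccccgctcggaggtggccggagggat
The interferon core match begins 55 bases before the RefSeq start of Lgals9, which lies downstream of the gene start given above. The STAT element was in none of the 6 windows. The window of Cd276, the gene that fell, held the loose κB motif 10 times, counting overlaps and both strands, and that of Cd80 held it 2 times.

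Other galectins moved both ways. Of 9 listed, 8 were in the table and 6 were tested, with 3 higher, 2 lower and 1 not past the test in IFNγ/LPS CM against naive CM (median log2 fold change 0.75, all genes 0.00). Movement in both directions is also the pattern of all genes, with 36.1% higher and 35.8% lower. Lgals3bp, a galectin-binding glycoprotein, stood at 1138 ± 16.1 CPM with IFNγ/LPS CM and 37.3 ± 1.45 CPM with naive CM (30.5-fold). Lgals3 had 481 ± 11.0 against 123 ± 7.62 CPM (3.91-fold). Lgals2 had no count in IFNγ/LPS CM and 205 counts, 1.03 ± 0.378 CPM, in naive CM, at least 48.4-fold lower against the limit of 3 counts over the group. Lgals1 was also among the lower, and 1 gene was lower when only genes of 1 CPM in at least 4 libraries were tested.

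IDO1 was low outside IFNγ/LPS CM and rose there. Ido1 (ENSMUSG00000031551; chr8:24584136-24597009, minus strand) stood at 7.02, 6.51, 8.15 and 6.73 CPM in IFNγ/LPS CM, at 0.395, 0.453, 0.353 and 0.576 CPM in naive CM and at 0.412, 0.207, 0.395 and 0.207 CPM in regular medium. The libraries of IFNγ/LPS CM were all high, and those of the other groups overlapped. With 92 counts in naive CM the ratio between the conditioned media was 15.5 (exact 95% interval 12.5 to 19.4; log2 fold change 3.96, edgeR adjusted p = 6.74e-13). Between naive CM and regular medium, with 92 and 60 counts, the ratio was 1.57 (1.12 to 2.21) and did not pass (edgeR adjusted p = 0.0642). It passed without regular medium replicate 1 (edgeR adjusted p = 0.0174) or replicate 3 (edgeR adjusted p = 0.0460).

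Among the other genes of the tryptophan route several had no or almost no counts. Of 13 listed genes 7 were tested, with 4 higher, 2 lower and 1 not past the test in IFNγ/LPS CM against naive CM (median log2 fold change 0.16, all genes 0.00). Among all genes 36.1% were higher and 35.8% lower. The count of lower genes was 4 with library totals and without IFNγ/LPS CM replicate 1. Ido2, the neighbouring paralog of Ido1, stood at 22.2 ± 2.47 CPM with IFNγ/LPS CM and 0.403 ± 0.0751 CPM with naive CM, a ratio of 56.4 (exact 95% interval 45.1 to 71.5). Wars, which loads tryptophan on its transfer RNA, had 316 ± 4.33 against 51.2 ± 3.23 CPM (6.17-fold). Afmid, which acts directly after IDO1, had 7.02 ± 0.539 against 19.4 ± 0.738 CPM (2.76-fold lower). The kynurenine aminotransferase genes Kyat3, at 6.95 ± 1.102 against 3.11 ± 0.184 CPM (edgeR adjusted p = 1.86e-07), and Kyat1, at 4.54 ± 0.561 against 5.39 ± 0.364 CPM and not past the test, were present in both groups. Kynu, Aadat and Haao had no count in any library, Kmo had 0, 1 and 0 counts and Qprt had 0, 3 and 0. Tdo2, the other enzyme of the first step, had 0, 51 and 19 counts and was not tested.

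Set on one scale of CPM per kb of annotated exon, the make-up of the set differed between groups. In IFNγ/LPS CM the order was Cd274 (182), Lgals9 (119), Icosl (9.66), Cd80 (5.35), Ido1 (3.89), Cd276 (3.23) and Cd40 (1.47), with no overlap between neighbours over the 4 libraries. In naive CM it was Lgals9 (34.9), Cd276 (6.64), Cd80 (3.18), Cd274 (0.401), Icosl (0.248), Ido1 (0.243) and Cd40 (0.0193), where the libraries of Cd274 and Icosl, and of Icosl and Ido1, overlapped. In regular medium it was Lgals9 (30.0), Cd276 (6.07), Cd80 (2.76), Cd274 (0.395), Ido1 (0.167), Icosl (0.108) and Cd40 (0.0126), where Ido1 and Icosl overlapped. The sum over the 9 genes was 324 ± 15.5 CPM per kb in IFNγ/LPS CM, 45.6 ± 0.831 with naive CM and 39.5 ± 2.18 with regular medium (SD, n = 4 each). Cd274 made up 56.0 ± 0.913% of it with IFNγ/LPS CM, 0.878 ± 0.194% with naive CM and 1.00 ± 0.161% with regular medium. Lgals9 made up 36.7 ± 1.02%, 76.5 ± 0.542% and 75.9 ± 1.63% in the same order. Per library there were 55.7 ± 2.06 counts of Cd274 per count of Cd276 in IFNγ/LPS CM, while there were 17.5 ± 4.78 counts of Cd276 per count of Cd274 with naive CM and 15.8 ± 2.67 with regular medium.

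**Figure D3:**
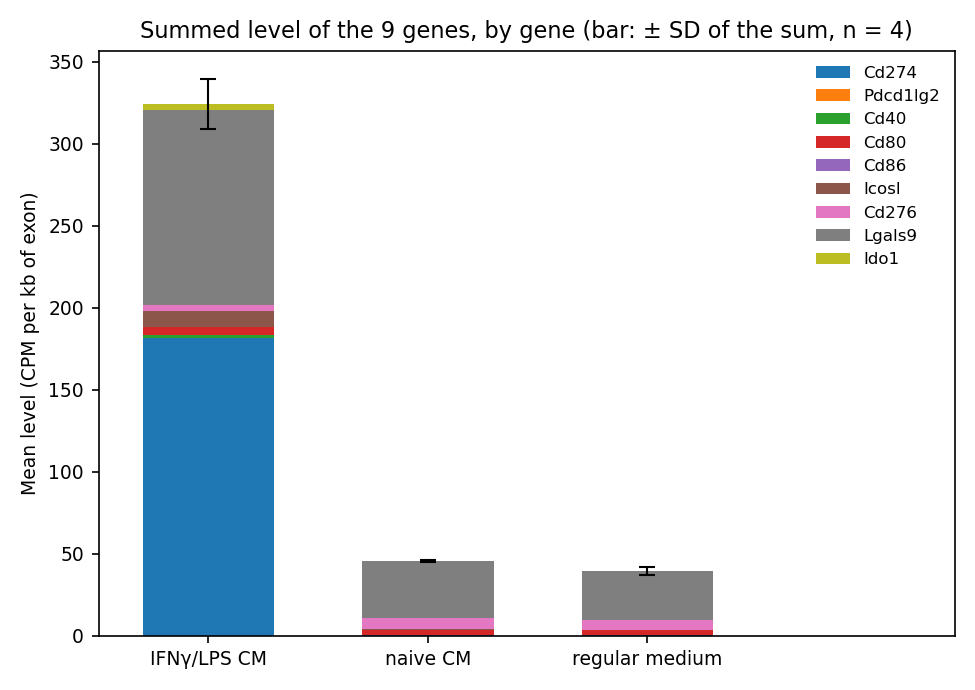
Mean level of the 9 genes in CPM per kb of exon, stacked by gene, with the SD of the sum (n = 4). The IFNγ/LPS CM bar reaches 324, mostly Cd274 and Lgals9, and the bars of naive CM and regular medium reach 45.6 and 39.5, mostly Lgals9.

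Against regular medium the same IFNγ/LPS CM libraries were compared. The log2 fold change of IFNγ/LPS CM over regular medium was 8.84 for Cd274, 6.90 for Cd40, 6.44 for Icosl, 4.57 for Ido1, 1.99 for Lgals9, 0.96 for Cd80 and -0.90 for Cd276. All 7 passed the test (edgeR adjusted p at most 4.55e-10). In naive CM the step over regular medium was largest for Icosl among the 3 that passed.

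**Figure D4:**
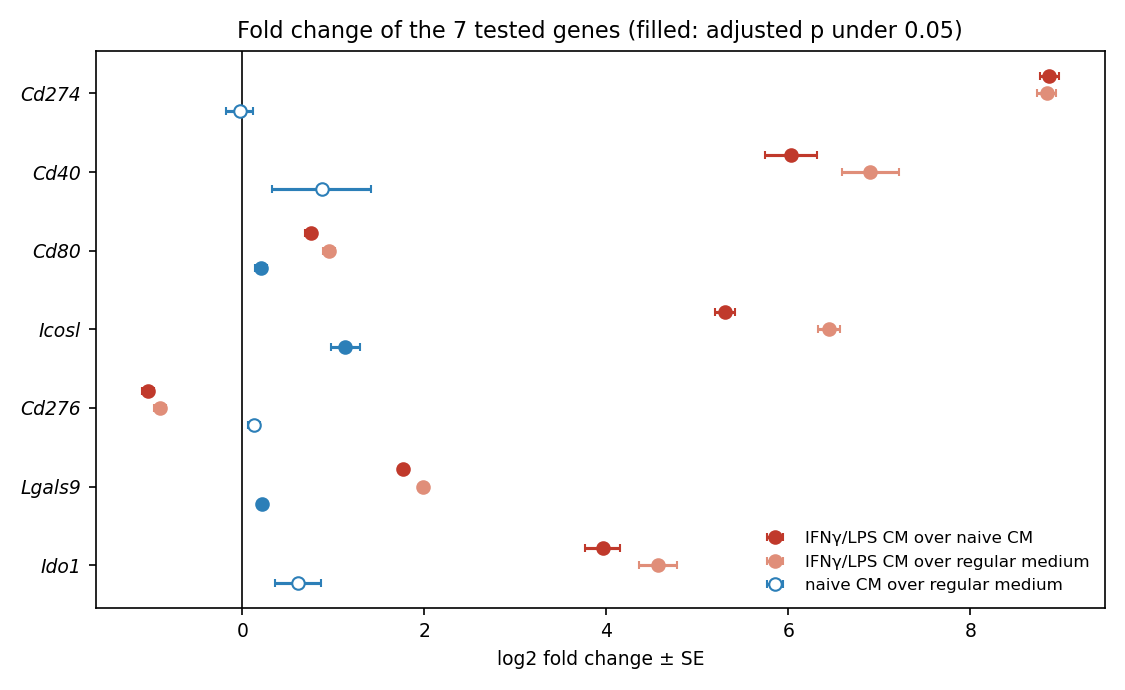
Log2 fold change ± SE of the 7 tested genes in the 3 comparisons, filled where the adjusted p was under 0.05. Cd274 lies near 0 (-0.03) between naive CM and regular medium and at 8.87 between the conditioned media, and Cd276 is the only gene left of 0 in the comparisons of IFNγ/LPS CM.

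Costimulatory ligands of the TNF superfamily were mostly low. Of 7 listed, 3 were tested, with 2 higher and 1 not past the test in IFNγ/LPS CM against naive CM (median log2 fold change 0.49, all genes 0.00). Tnfsf9 (4-1BB ligand) stood at 21.4 ± 0.555 CPM with IFNγ/LPS CM and 5.12 ± 0.337 CPM with naive CM (4.19-fold). Tnfsf18 (GITR ligand), at 9.04 ± 1.59 against 6.37 ± 1.64 CPM, had overlapping groups, an edgeR adjusted p of 0.0435 and a call that was lost in 9 of the alternatives, among them leaving out IFNγ/LPS CM replicate 1, 2 or 4 or naive CM replicate 2 or 3, each of which leaves 1 gene of this list higher. With library totals 1 was higher and 1 lower.

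Among other ligands for T and NK cells 15 of 16 were in the table and 12 were tested, with 9 higher, 2 lower and 1 not past the test in IFNγ/LPS CM against naive CM (median log2 fold change 1.90, all genes 0.00), or 8 higher and 3 lower with library totals. Icam1, the adhesion partner of the integrin LFA-1, stood at 56.2 ± 2.77 CPM with IFNγ/LPS CM and 0.619 ± 0.0450 CPM with naive CM (89.8-fold). H2-T23 (Qa-1), read by the inhibitory receptor NKG2A, had 1335 ± 35.7 against 63.5 ± 3.46 CPM (21.03-fold). Fgl2, an inhibitory ligand of FcγRIIB, had 358 counts against 1, a ratio of 505 (exact 95% interval 90.1 to 20019), and only IFNγ/LPS CM had enough reads for a test. Nectin3, a ligand of other nectins, had 31.6 ± 2.23 against 105 ± 2.45 CPM (3.32-fold lower).

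**Figure D5:**
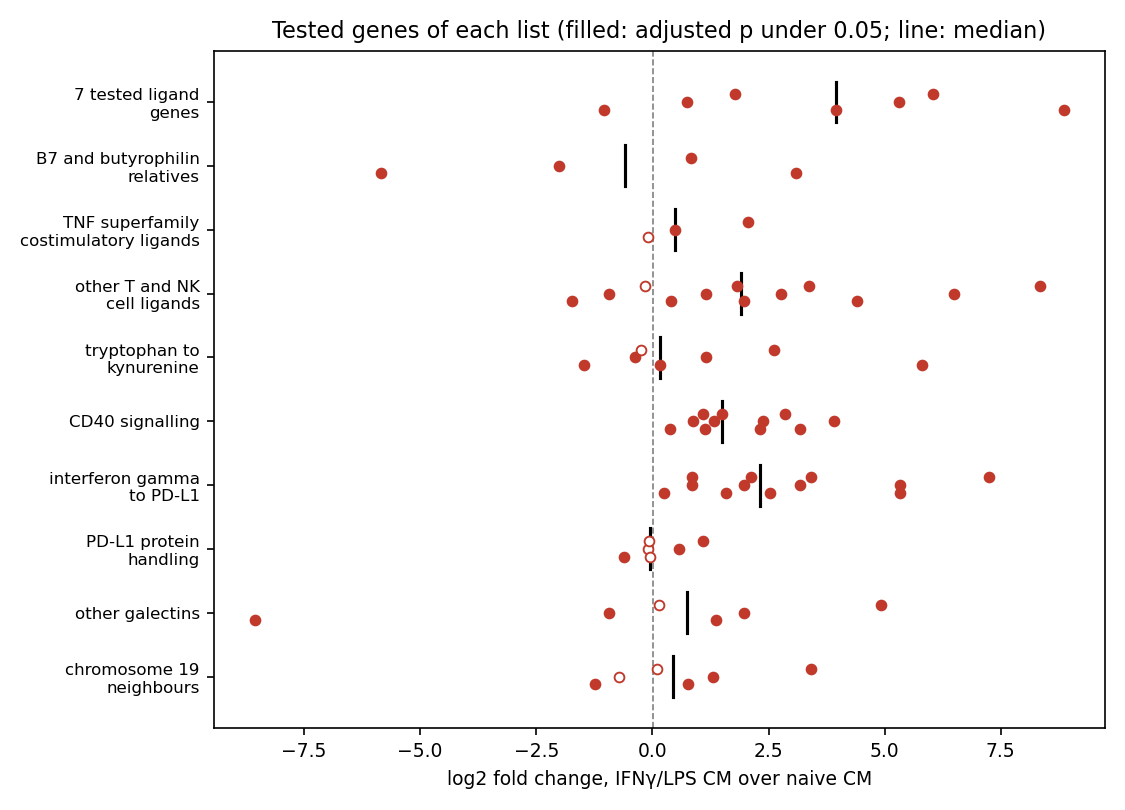
Log2 fold change of IFNγ/LPS CM over naive CM for each tested gene of the ligand set and of 9 lists of related genes, filled where the adjusted p was under 0.05, with the median as a line and that of all genes dashed. The CD40 and interferon gamma lists lie wholly right of 0 under TMM, with 1 interferon gamma gene lower under library totals. The leftmost galectin is Lgals2, a fitted value for a gene with no count in IFNγ/LPS CM.

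Apart from Havcr2 and Lag3, the receptors on the T cell side were nearly absent. Havcr2 was higher in IFNγ/LPS CM than in naive CM, at 3.36 ± 0.442 against 0.420 ± 0.0712 CPM (log2 fold change 2.97, edgeR adjusted p = 4.11e-11). Of 14 T and NK cell markers and receptors 7 had no count in any library, among them Cd3e, Cd8a, Ctla4 and Cd40lg, and Pdcd1, which encodes PD-1, had 4 counts in IFNγ/LPS CM and none elsewhere. The summed level was 3.38 to 4.52 CPM in IFNγ/LPS CM, 0.707 to 0.864 in naive CM and 0.664 to 1.02 in regular medium, nearly all from Havcr2 and Lag3.

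The genes whose log2 CPM ran closest to each member over the 12 libraries were found by the root mean square difference after centring, among 13106 genes with a name. For Cd274 they were Ccl8, a chemokine (0.215 log2 units), Serpina3i and Tnfsf10, the TRAIL ligand. Ccl8 and Serpina3i had no count in naive CM or regular medium, and Tnfsf10 had 7 and 6, so their log2 CPM there, and with it the likeness, rests on the prior count of 2 added to each gene. For Icosl they were Phf11b (0.230), the complement component C3 and Ifi211. Like Icosl, all were also higher in naive CM than in regular medium, which the choice by likeness over all 12 libraries favours. For Ido1 they were Traf1 (0.231), Nfkbiz and Ttc39c, and for Cd40 Gpr84 (0.345), Hdc and Ltbp2, where Gpr84 and Hdc rest on the prior count in the same way, with 3 and 4 counts in naive CM and 1 and 0 in regular medium. For Lgals9 they were Litaf (0.0783), Fosl2 and Cmtr1, for Cd80 Slc20a2 (0.0353), Pgp and Prkcsh, and for Cd276 Tubb2a (0.0743), Klc4 and Tgfbr2, the type II receptor of TGF-β. Phf11b, the closest to Icosl, stood at 198 ± 7.00 CPM in IFNγ/LPS CM and 3.96 ± 0.323 CPM in naive CM, and Tgfbr2 at 279 ± 4.62 and 566 ± 6.77 CPM.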

How the data were processed

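Polyadenylated RNA of 12 libraries was sequenced from stranded libraries in paired reads, per the labels. The authors deposited estimated counts per gene as whole numbers, made with Salmon 1.10.1 on the mm10 build, per the submitters' processing notes. Not given in the sources used here are the annotation release and the summing to genes. Symbols matched by identifier for 51344 of 55822 rows (92%) in GENCODE M21, which also gave coordinates and exon lengths.

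The filter filterByExpr of edgeR 4.0.16 (run in R 4.3.3) left 16140 genes. After TMM scaling, 1 robust quasi-likelihood model covered all 12 libraries, leaving 9 residual degrees of freedom, and two-sided p-values were adjusted by Benjamini-Hochberg over all genes, with a threshold of 0.05. The SE of a log2 fold change is approximate. CPM use the TMM-scaled total. Count ratios have an exact 95% interval where the lower group held 100 counts or fewer. The test was checked on simulated counts in which few genes changed. Most genes passed in the comparisons of IFNγ/LPS CM, so that check does not cover the scaling. Libraries of a group differed by more than sampling noise (chi-square per degree of freedom 4.81 to 55.8 over 18 pairs). Same-numbered libraries were not treated as paired.

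The members and the lists were chosen with earlier results of these data known. Named genes were all 9 members, and from each list up to 3 genes past the test with the largest absolute log2 fold change between the conditioned media plus 1 in the other direction, and the 3 genes most like each member with at least 5 CPM in a group. Lgals1, Plgrkt, Havcr2, Kyat1, Kyat3, marker genes and genes too low to test are named beside this rule, after their values were seen, and a gene that the rule names and a marker are not reported here. Promoter sequences are from RefSeq. Alternatives were DESeq2 1.42.0 size factors, library totals, no filter or 1 CPM in at least 4 libraries, the DESeq2 Wald test, limma 3.58.1 voom, a model without the group not compared, a replicate block and leaving out each library.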

Additional observations from a re-analysis of the deposited data

Results flagged for a closer look

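Among 36 genes in 3 groups, 98 sets of 4 libraries were searched for a library far from the others of its group. Chance gives about 1 in 20, so 6 such libraries are near what chance gives, and none concerned a member. Btn2a2 was high in regular medium replicate 3 (0.231 CPM, against 0.0172 to 0.0295 in the others). Ildr2 was high in IFNγ/LPS CM replicate 4 (68.1 CPM, against 65.6 to 65.7). Traf1 was high in IFNγ/LPS CM replicate 1 (11.6 CPM, against 9.43 to 9.70). Irf1 was low in IFNγ/LPS CM replicate 4 (1492 CPM, against 1604 to 1619). Lgals2 was high in naive CM replicate 1 (1.60 CPM, against 0.814 to 0.866). Rcl1 was low in naive CM replicate 1 (7.13 CPM, against 8.18 to 8.40).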

How the results depend on the processing

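In the comparisons of IFNγ/LPS CM with the other groups all 7 tested members kept their direction and their call in each of 16 alternatives per comparison. Library totals in place of TMM moved the median of all genes to -0.41 in IFNγ/LPS CM against regular medium and the calls to 3279 higher and 9597 lower, where TMM gave 5712 and 5882. Under library totals the log2 fold change between the conditioned media was 8.48 for Cd274, 0.36 for Cd80 and -1.42 for Cd276. In naive CM against regular medium the members past the test numbered 2 to 4 when each library was left out in turn. There Cd274 changed sign, without a call: its log2 fold change was 0.021 in the fit of only those 2 groups, and it ran from -0.12 to 0.13 when each library was left out, with 0.13 without naive CM replicate 4 and 0.10 without regular medium replicate 1. The cause was not tested. Cd80 lost its call at a log2 fold change of 0.18 and 0.16 without the libraries named in the report, Ido1 gained one at 0.85 and 0.72, and Cd276 at 0.17. Tnfsf18 lost its call between the conditioned media in 9 of the alternatives, at a log2 fold change of 0.10 under library totals. Same-numbered libraries did not deviate together (r from -0.0637 to 0.0679 over 12 pairs, none over 0.1), and 1 of 12 libraries correlated best with its own number. With the replicate number as a block 11653 genes passed between the conditioned media, 5780 between naive CM and regular medium and 11610 between IFNγ/LPS CM and regular medium, and the members past the test numbered 7, 3 and 7. Depth limits Cd40 outside IFNγ/LPS CM, and Pdcd1lg2 and Cd86 in every group.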

Other observations

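Among the B cell markers Pax5, a transcription factor of that lineage, had 1653 counts in IFNγ/LPS CM, 0 in naive CM and 1 in regular medium, or 11.7 ± 0.500 CPM in IFNγ/LPS CM. Ms4a1, another marker of the list, had no count in IFNγ/LPS CM, Cd79a had 1 and Cd79b had 2.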
